A study of Mus musculus with 32 samples.

Results

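Isolated endothelial-only peaks are open sites of liver endothelial cells that stand alone in the genome. They were chosen from the authors' peak lists by 3 conditions: the endothelial peak lay on chromosomes 1 to 19, it overlapped no Kupffer cell peak by even 1 bp, and no other peak of either list lay within 50 kb of its edges. The conditions were met by 1025 of the 91453 endothelial peaks, which is 2.74% of the 37387 endothelial-only peaks on these chromosomes (95% exact binomial interval 2.58% to 2.91%). Membership rests on the calls themselves, so the number of members and every gap below 50 kb are descriptions, and no test was made of them.

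The study applied ATAC-seq, which maps accessible DNA by letting a transposase insert into it, to endothelial cells and to Kupffer cells, the macrophages that reside in the liver, from male C57BL/6J mice on normal chow. The 32 libraries form 8 groups of 4 replicates: each cell type at ZT10 and at ZT22 (hours after lights on), from WT mice and from REV-ERB a/b double knockout mice. Both REV-ERB genes, which encode heme-binding repressors of the circadian clock, were deleted in hepatocytes of adult mice according to the series' design, so neither sequenced cell type was the one targeted. The labels and design text do not state what drove the deletion, how the cells were isolated or whether animals were pooled. The deposited lists hold 1 set of positions per cell type, so genotype, time and replicate are not separated in any value below, the depth is unknown, and no SD or test between groups can be given. The labelled cell types could not be checked against marker genes, because the positions are on mm9 and the gene table at hand is on GRCm38.

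Open chromatin marks the DNA that transcription factors can reach, at promoters near gene starts and at enhancers that may lie far from the genes they act on. Sites of both kinds tend to cluster around active genes, and long stretches with few genes or none, often called gene deserts, usually hold few open sites. Endothelial cells of the liver sinusoids line its smallest vessels, filter and scavenge from the blood, and depend on transcription factors of the ETS, GATA and SOX families, among others. A nucleosome-free peak is a short interval in which fragments too short to span a nucleosome pile up, and it is the type of peak that the list names give. No gene, promoter or sequence is assigned to any peak here, since no genome of the same build was used. Positions are on mm9, counted from 1.

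The sparse part of the genome had another make-up than the rest. Sites were formed by merging overlapping peaks of both lists, which gave 170850 sites on chromosomes 1 to 19, and a site with no other within 50 kb was called isolated. Of 2137 isolated sites, 1025 or 48.0% were endothelial-only (45.8% to 50.1%), 658 or 30.8% were Kupffer-only (28.8% to 32.8%) and 454 or 21.2% were shared by both cell types (19.5% to 23.0%). Over all sites Kupffer-only was the most frequent kind, with 81942 sites or 48.0%, and endothelial-only the least frequent, with 21.9%. There were 2.19 Kupffer-only sites for each endothelial-only site in all, and 0.642 among isolated sites. The order over all sites depended on the lengths of the lists. The Kupffer list was drawn at random, in a single draw, down to the length of the endothelial list. There were then 0.996 Kupffer-only sites for each endothelial-only site in all, and 0.487 among isolated sites. Shared sites were the least frequent kind, and a shared site that lost its Kupffer peak became endothelial-only by construction.

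Expressed per kind of site, 2.74% of endothelial-only sites were isolated, against 0.803% of Kupffer-only sites (0.743% to 0.866%) and 0.881% of shared sites (0.802% to 0.966%). The rate of the endothelial-only sites was 3.41 times that of the Kupffer-only and 3.11 times that of the shared sites. With lists of equal length these ratios were 2.05 and 2.23. The random draw adds former shared sites to the endothelial-only sites, so part of that change can arise by construction. Without minimum-width peaks, a class of narrow peaks described below, the ratios were 4.19 and 5.01. Leaving such peaks out turns a shared site whose Kupffer peak alone is that narrow into an endothelial-only site. Part of the change to 4.19 and 5.01 can therefore arise by construction. Seen from the endothelial list, 454 of 1479 isolated sites, or 30.7%, were also called in Kupffer cells (28.4% to 33.1%), against 57.9% of all endothelial sites. Seen from the Kupffer list, 40.8% of 1112 isolated sites were also called in endothelial cells (37.9% to 43.8%), an interval that holds the 38.6% of all Kupffer sites. Kind and isolation are what the rule used, so these shares describe the lists. All intervals treat peaks as independent and cover counting error only, and with 1 list per cell type the differences have no replicate check.

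The share of endothelial-only sites was higher in each successive class of distance to the nearest other site, up to 500 kb. It was 18.4% where the nearest site lay up to 1 kb away (18.2% to 18.7%), 23.0% at 1 to 5 kb and 25.2% at 5 to 10 kb. At 10 to 25 kb it was 29.0%, and at 25 to 50 kb, just short of the limit used here, it was 37.8% (36.0% to 39.5%). Among isolated sites it was 45.8% at 50 to 100 kb (43.0% to 48.5%), 51.6% at 100 to 200 kb (47.2% to 56.0%) and 52.0% at 200 to 500 kb (45.9% to 58.0%). Beyond 500 kb 36 of 80 sites were members, or 45.0%, with an interval wide enough to hold all 3 preceding shares (33.8% to 56.5%). The limit of 50 kb therefore falls within a gradual change and not at a break.

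**Figure D1:**
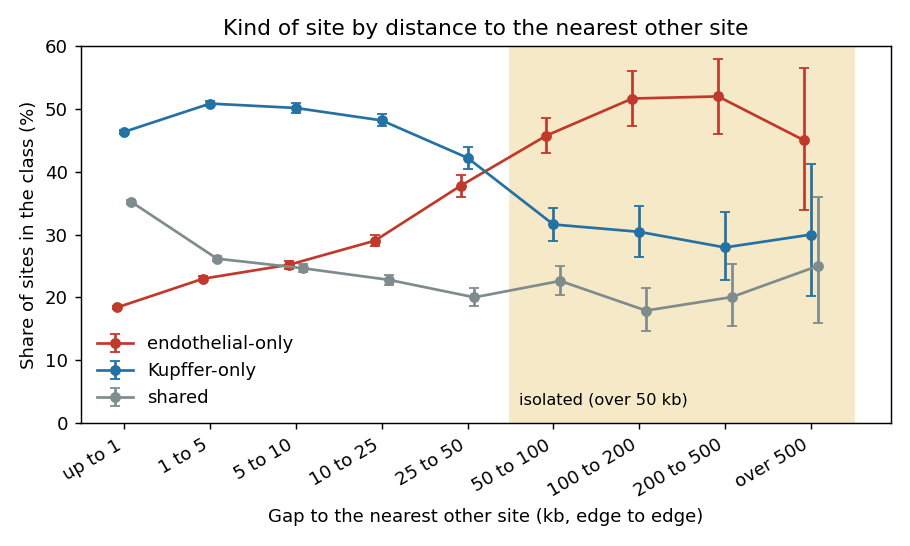
Share of sites of each kind (%, vertical axis) in 9 classes of edge-to-edge distance to the nearest other site (kb, horizontal axis), with 95% exact binomial intervals as bars; the shaded classes hold the isolated sites. The endothelial-only share goes from 18.4% in the closest class to 52.0% at 200 to 500 kb, and the Kupffer-only share goes from 46.3% to 28.0% over the same classes.

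Both lists shaped the set. Among endothelial-only peaks without another endothelial peak within 50 kb, a nearby Kupffer peak removed the smaller part. Endothelial peaks that overlap a Kupffer peak, among them those of the 454 isolated shared sites, are not in these counts. No other endothelial peak lay within 50 kb of 1593 endothelial-only peaks, and 1025 of these, or 64.3%, also had no Kupffer peak that close. No Kupffer peak lay within 50 kb of 3368 endothelial-only peaks, of which 30.4% had no other endothelial peak that close either. For Kupffer-only peaks the corresponding numbers were 1105 with no other Kupffer peak and 4814 with no endothelial peak within 50 kb, out of 81942. The median member lay 104 kb from the nearest other endothelial peak (quartiles 68.5 and 190 kb) and 131 kb from the nearest Kupffer peak (78.6 and 252 kb). Although the Kupffer list is the longer one, the nearest peak was an endothelial peak for 582 members (56.8%). It was a Kupffer peak for 440 (42.9%), and 3 members were equally far from both. A shared site holds peaks of both lists, and beside such a site the peak with the nearer edge decided. These numbers therefore do not give the kind of the nearest site.

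Most members had the smallest width that is common in the endothelial list, a single value of 0.15 kb, and peaks of exactly this width are called minimum-width peaks here. They made up 585 members, or 57.1% (54.0% to 60.1%), against 44.3% of the 36362 other endothelial-only peaks (43.8% to 44.8%). The remaining 440, wider members had a median width of 218 bp (quartiles 186 and 250 bp), close to the 226 bp of the other endothelial-only peaks above the minimum. Wide members were fewer: 106, or 10.3%, were over 250 bp (8.54% to 12.4%), against 17.7% of the other endothelial-only peaks, and 36 were over 300 bp. No member exceeded 403 bp, while the widest of the other endothelial-only peaks spanned 719 bp. These maxima come from sets of 1025 and 36362 peaks, and a larger set tends to reach a larger maximum. The endothelial peaks of the 454 isolated shared sites reached 488 bp. All members together covered 188 kb of DNA.

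A narrow width was not limited to endothelial-only sites. Isolated Kupffer-only peaks had the same width in 54.1% of cases (50.2% to 58.0%), against 27.2% of the other Kupffer-only peaks, and the endothelial peaks of isolated shared sites in 61.2% (56.6% to 65.7%), against 26.5% elsewhere. These 3 intervals overlapped. The Kupffer peaks of isolated shared sites were of this width in 70.7% (66.3% to 74.9%), an interval above those of the isolated endothelial-only and Kupffer-only peaks. The shift from the rest of the same kind was smallest for the endothelial-only peaks, whose non-isolated peaks were already narrow. The lists do not record how libraries were combined or how deeply they were read, and the part of either in these widths was not tested.

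Within the members, the minimum-width share was higher the farther the next site lay. It was 52.8% of 386 members with the nearest site at 50 to 75 kb (47.7% to 57.9%), 53.2% of 190 at 75 to 100 kb (45.8% to 60.4%) and 58.2% of 268 at 100 to 200 kb (52.1% to 64.2%). At 200 to 500 kb it was 66.9% of 145 members (58.6% to 74.5%), and beyond 500 kb 27 of 36 members, or 75%, were of minimum width (57.8% to 87.9%). The interval at 200 to 500 kb lay above that at 50 to 75 kb, and all directly neighbouring classes overlapped. The widest member beyond 500 kb measured 224 bp. The rise was not particular to members. For the endothelial peaks of isolated shared sites the share was 56.8% at 50 to 100 kb and 80% beyond 500 kb (56.3% to 94.3%). For isolated Kupffer-only peaks it was 53.0% and 62.5% (40.6% to 81.2%) in the same classes.

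**Figure D2:**
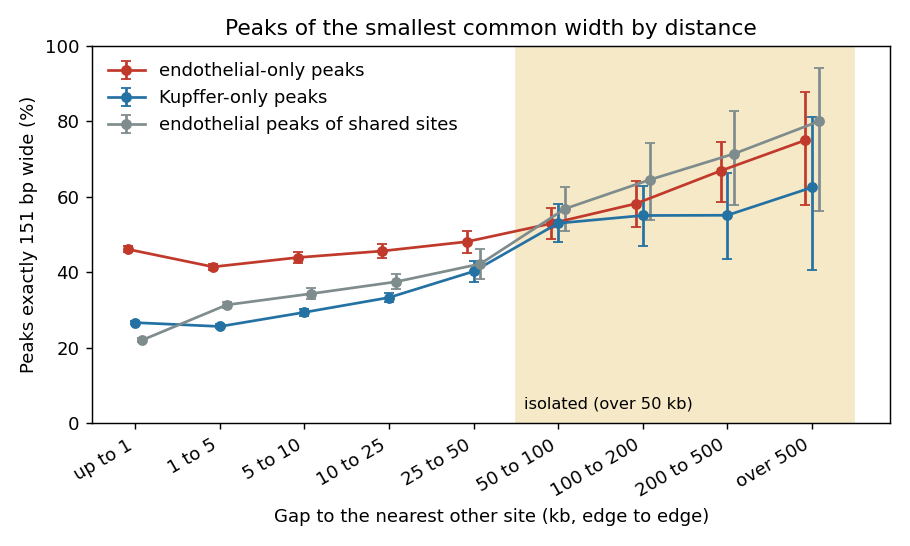
Share of minimum-width peaks (%, vertical axis) by distance to the nearest other site (kb, horizontal axis) for endothelial-only peaks, Kupffer-only peaks and the endothelial peaks of shared sites, with 95% exact binomial intervals as bars; the shaded classes are isolated. The endothelial-only share stays between 41.5% and 48.1% up to 50 kb and reaches 75% beyond 500 kb. In that last class the share is 80% for shared sites and 62.5% for Kupffer-only peaks.

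Width and sharing were related differently in sparse chromatin. Among isolated endothelial peaks, 32.2% of those of minimum width were also called in Kupffer cells (278 of 863, 29.1% to 35.4%) and 28.6% of the wider ones were (176 of 616, 25.0% to 32.3%), which are overlapping intervals. Peaks over 250 bp were no exception, with 29.8% shared (22.6% to 37.8%). Among endothelial peaks with another site within 50 kb, sharing was 45.7% at minimum width (45.1% to 46.3%), 64.9% above it and 67.2% over 250 bp (66.5% to 67.8%). An isolated endothelial peak was therefore endothelial-only in most cases, whether of minimum width or wider. Elsewhere a wide endothelial peak was in most cases shared, and one of minimum width was not. Kind and isolation are what the rule used, so these shares describe the lists.

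The gaps around members ranged widely, and those on the near and far side often differed. The nearer neighbour lay at a median of 90.1 kb (quartiles 63.6 and 150 kb). The farther lay at 221 kb (123 and 426 kb) over the 1020 members with a site on both sides. The stretch from neighbour to neighbour, with the member as its sole site, had a median length of 328 kb and reached 3122 kb. The farther gap was more than 2 times the nearer in 473 members and more than 5 times in 128. Neither direction was favoured, with the previous site nearer in 519 members and the next site nearer in the rest. The nearest site was over 100 kb away in 449 members, over 200 kb in 17.7% (15.4% to 20.1%), over 500 kb in 36 and over 1000 kb in 4. Isolated Kupffer-only sites and isolated shared sites had similar shares over 200 kb, 15.5% (12.8% to 18.5%) and 16.7% (13.4% to 20.5%).

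**Figure D3:**
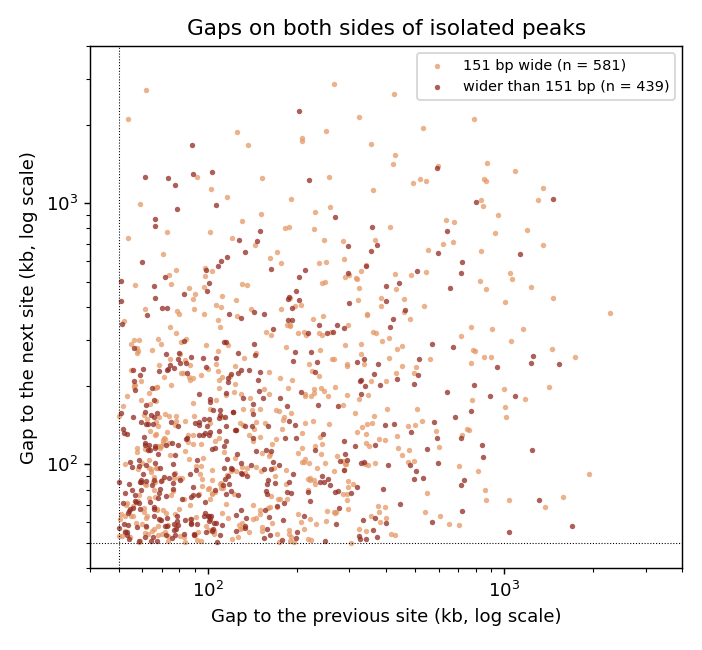
Gap to the previous site (kb, log axis) against gap to the next site (kb, log axis) for the 1020 members with a site on both sides, 581 of them of minimum width and 439 wider; dotted lines mark the limit of 50 kb. Members lie densest near the limit on both axes and spread to 2269 kb before and 2855 kb after the peak, and 27 of the 36 members with both gaps over 500 kb are of minimum width.

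The 5 members farthest from any other peak were mostly narrow. The most isolated, chr6:63038414-63038564, was of minimum width and lay 1355 kb after a Kupffer-only site and 1148 kb before another. The next, chr13:87274353-87274503, was of minimum width too, with gaps of 1088 kb to a shared site and 1324 kb to a Kupffer-only site. A wider peak of 199 bp at chr3:71368081-71368279 was the exception among them, with endothelial-only sites 1459 kb before and 1040 kb after it. The member chr8:52512040-52512190 had Kupffer-only sites at 1301 and 1024 kb, and chr15:70401102-70401252 had endothelial-only sites at 956 and 899 kb. Both were of minimum width. The lists give no height or score, so the strength of these calls is unknown.

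The 5 widest members included none of the 5 most isolated, so all were closer to other sites than those by selection. The widest, chr7:85033540-85033942, measured 403 bp and lay 102 kb after an endothelial-only site and 173 kb before a Kupffer-only site. Second was chr6:111816081-111816477, of 397 bp, with endothelial-only sites 140 and 99.5 kb away. Of the pair at 391 bp, chr4:114953865-114954255 had an endothelial-only site 148 kb before and a Kupffer-only site 210 kb after it. The other, chr8:30049401-30049791, stood farther apart, with a shared site 671 kb before and a Kupffer-only site 280 kb after it. At chr3:21473213-21473602 a member of 390 bp had gaps of 76.9 kb to an endothelial-only and 59.3 kb to a shared site. In 4 of these 5 the previous site was endothelial-only, but the next site was so only at chr6:111816081-111816477. Over both sides of all members, 47.0% of the neighbours were endothelial-only.

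At the limit itself, the member with the smallest gap was chr14:101202398-101202641, 244 bp wide and 50.0 kb from a shared site. The endothelial-only peak just outside was chr17:91866227-91866485, 259 bp wide, with an endothelial-only site at 49.9 kb. At 5 members no site lay on 1 side before the end of the chromosome's calls: chr3:3012995-3013145, chr13:3215454-3215604, chr14:4138528-4138678 and chr16:3122924-3123177 were the first sites of their chromosomes and chr11:121786535-121786685 the last. All of these but the peak on chromosome 16, at 254 bp, were of minimum width. The closest pair of members lay on chromosome 12, at chr12:108646333-108646483 and chr12:108696657-108696807, both of minimum width and 50.2 kb apart.

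The sites flanking a member were more often endothelial-only than the end sites of long gaps in general. Of the 2045 neighbours of members, 961 or 47.0% were endothelial-only (44.8% to 49.2%), 645 or 31.5% Kupffer-only (29.5% to 33.6%) and 439 or 21.5% shared (19.7% to 23.3%). Over the ends of all gaps longer than 50 kb, endothelial-only sites made up 36.8% and Kupffer-only sites 39.7%. The reverse held beside isolated Kupffer-only sites, whose neighbours were Kupffer-only in 44.3% (41.6% to 47.0%) and endothelial-only in 33.2% of cases. Neighbours of isolated shared sites were endothelial-only in 36.0% (32.9% to 39.2%). Both neighbours were endothelial-only for 252 of 1020 members, both were Kupffer-only for 127 and both were shared for 51. A site between 2 members is counted for each, so these counts are not independent and the intervals are too narrow. Members are themselves among the counted neighbours: in 213 adjacent pairs both sites were members, each counted beside the other. The ends of all long gaps include members as well.

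Many isolated sites, members among them, stood directly next to another isolated site, of their own or another kind. A chain of isolated sites, each directly next to another isolated site, held 624 members or 60.9%. All 2137 isolated sites together formed 468 such chains, so standing in a chain was not particular to members. An isolated site came next after 394 of the 1025 members and after 803 of all 2137 isolated sites, which are similar shares. Of the 394 members whose next site was isolated as well, 213 or 54.1% were followed by another member (49.0% to 59.1%), against the 48.0% of members among all isolated sites. The longest uninterrupted row of members held 5 and lay on chromosome 10, from chr10:108574305-108574476 through chr10:108764047-108764197, chr10:109102111-109102316 and chr10:109302519-109302816 to chr10:109357945-109358178. The second was of minimum width, the others were 172, 206, 298 and 234 bp wide in this order, and the gaps between them 190, 338, 200 and 55.1 kb. The longest chain of any kind, on chromosome 1, had 9 isolated sites: 5 members, 3 Kupffer-only sites and 1 shared site, with a gap of 1178 kb between the members chr1:146986084-146986433 and chr1:148164213-148164363.

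The surroundings of members held fewer sites than those of other endothelial-only peaks, as the rule requires close by. A window of 500 kb on either side of a member held a median of 24 other sites (quartiles 8 and 49), against 116 around the other endothelial-only peaks (75 and 157). That window was empty for 36 members and held up to 5 sites for 193, while its largest count was 150. Windows around isolated Kupffer-only and isolated shared sites held medians of 30 and 25.5.

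Members were spread over all 19 chromosomes, from 13 on chromosome 19 to 94 on chromosome 1. Gaps over 50 kb made up 1332 Mb, or 55.2%, of the span called on these chromosomes, and there were 0.77 members per Mb of such gaps. By chromosome that density ran from 0.473 on chromosome 19 and 0.611 on chromosome 4 to 0.925 on chromosome 16 and 0.966 on chromosome 10. The isolated share of endothelial-only peaks was lowest on chromosome 19, at 1.31% (0.702% to 2.24%), and on chromosome 11, at 1.72% (1.23% to 2.35%), and highest on chromosome 14, at 3.89% (3.0% to 4.95%), and chromosome 12, at 3.94% (3.04% to 5.01%). Chromosomes 11 and 19 also had the most sites per Mb, 101 and 89.2, and chromosome 14 had 57.5. Over the 19 chromosomes the isolated share and the number of sites per Mb had a Pearson coefficient of -0.82 and a Spearman coefficient of -0.81. The number of members and the length in long gaps had coefficients of 0.90 and 0.88. These are descriptions over chromosomes that share both lists, and the rule itself favours chromosomes with few sites.

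**Figure D4:**
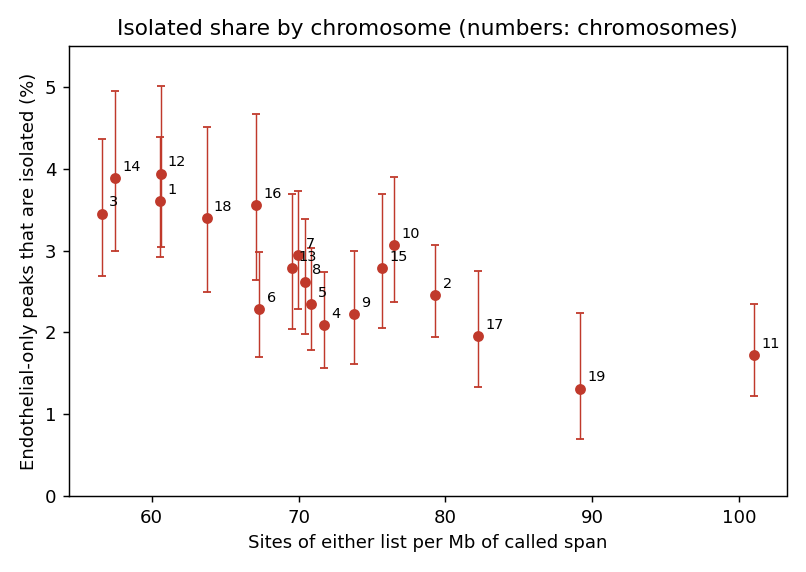
Share of endothelial-only peaks that are isolated (%, vertical axis) against the number of sites of either list per Mb of called span (horizontal axis), 1 numbered point per chromosome, with 95% exact binomial intervals as bars. The highest share is 3.94%, on chromosome 12, and the lowest 1.31%, on chromosome 19; chromosome 11, with the most sites per Mb at 101, has 1.72%.

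Along the chromosomes, members were spread more evenly than other endothelial-only peaks. With each called span divided into 5 equal parts from its start, members fell into them at 23.0%, 20%, 19.9%, 18.6% and 18.4%. The other endothelial-only peaks leaned to the far end, with 16.8% in the starting part and 26.7% in the last. Isolated Kupffer-only sites had between 16.1% and 24.3% in each of the 5 parts, and isolated shared sites between 17.2% and 23.1%.

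In windows of 3 Mb, 519 of 811 windows with a site held a member, or 64.0%. A single member was found in 220 windows, 2 in 171, 3 in 76 and 4 in 36, and 16 windows held 5 or more. The fullest window, on chromosome 16 between 72000001 and 75000000, held 9 members, 2 isolated Kupffer-only sites and 2 isolated shared sites among 73 sites in all. Next was the window on chromosome 10 between 108000001 and 111000000, with 7 members, 5 of them the row given above, and no isolated site of another kind among its 176 sites. The 5 windows with 6 members lay on chromosome 1 from 9000001 and from 15000001, on chromosome 7 from 96000001, on chromosome 11 from 39000001 and on chromosome 15 from 54000001. That on chromosome 11 was the emptiest of all 7, and its 22 sites included no endothelial-only peak besides the 6 members.

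The members of the window on chromosome 16 are over 50 kb from all other sites by the rule, and their order among those sites was as follows. The members at chr16:72240039-72240189, chr16:72382061-72382413 and chr16:72538574-72538758 led up to a group of 31 endothelial-only and shared sites without any Kupffer-only site, between 72605483 and 72980396. After an isolated Kupffer-only site came a minimum-width member, chr16:73156929-73157079, and then 24 Kupffer-only sites and 1 shared site with no endothelial-only peak among them, up to 73964714. Another, chr16:74133280-74133430, followed a group of 3 endothelial-only peaks. The last 4 members, chr16:74598343-74598540, chr16:74739861-74740011, chr16:74801694-74801854 and chr16:74901200-74901428, stood in a row with gaps of 141, 61.7 and 99.3 kb. Of the 9 members 4 were of minimum width, and the widest measured 353 bp, at 72382061.

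**Figure D5:**
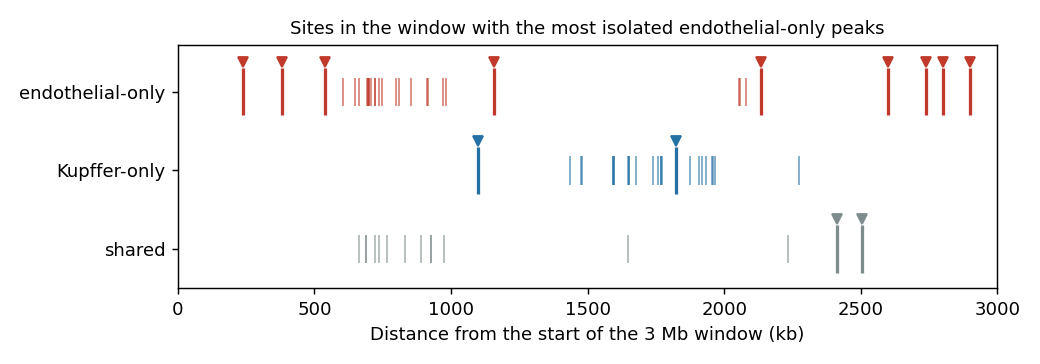
Sites in the 3 Mb window on chromosome 16 by kind (rows) and distance from the start of the window (kb, horizontal axis); tall lines with triangles are isolated sites, short lines all other sites. The 9 isolated endothelial-only peaks are over 50 kb from all other sites, as the rule requires, and the last 4 of them have no site of another kind between them.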

How the data were processed

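The deposited files are 2 peak lists made by the authors, 1 per cell type, with 3 columns each (chromosome, start and end); the positions are in bp and carry no count, signal, score or p-value. The submitters' processing notes name Bowtie, HOMER and mm9 but no version. No source used here states the threshold for peaks, the handling of transposase offsets, the selection of fragments or the merging of libraries. Per the labels' protocols, 50000 cells were transposed per reaction.

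Overlapping peaks (at least 1 bp) of both lists were merged into sites with NumPy 2.4.6 and pandas 2.3.3 in Python 3.11.15, and the gap from edge to edge to the next site was measured on each side. The procedure was tested on simulated data, and the 1025 members were checked with bedtools 2.31.1, which gave 1025. SciPy 1.17.1 gave the 95% Clopper-Pearson intervals. Minimum-width peaks are exactly 151 bp wide, the most frequent width of the endothelial list. Figures were drawn with matplotlib 3.10.9. The members and the comparisons were chosen with earlier results of these data known. Regions were named by rule: the 5 most isolated and 5 widest members, those at the limit, the closest pair and the 3 Mb windows with the most members, ties included; the row of 5 members, the chain on chromosome 1 and the 5 members without a site on 1 side were added after their values were seen. Planned sequence motifs, promoter classes, gene lists and marker genes were not used, since no genome or annotation of mm9 was used. Alternatives covered the distance, joined peaks, peaks of 151 bp, list length, chromosome ends and the X chromosome.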

Additional observations from a re-analysis of the deposited data

How the results depend on the processing

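The number of members follows the distance chosen, with 2168 at 25 kb and 449 at 100 kb. It stayed within 1.5 times with distances between centres, with peaks within 1 kb joined, away from chromosome ends and with the X chromosome added. Without minimum-width peaks in either list the count was 1040, also within 1.5 times. That setting leaves out 585 of the 1025 members, so at most 440 of its 1040 peaks are members. The similar count there belongs to a largely different set. Endothelial-only sites were 42.0% of isolated sites at 25 kb, 51.1% at 100 kb, 53.1% without minimum-width peaks, 45.4% with peaks within 1 kb joined, 51.5% over isolated sites whose peaks were all wider than the minimum and 45.8% with peaks up to 500 bp apart taken as 1 site. With Kupffer peaks drawn at random down to the number of endothelial peaks the share was 56.5%, against 38.1% of all sites in that setting; fewer Kupffer peaks leave more endothelial-only sites by construction. Members of minimum width were 52.4% at 25 kb and 62.4% at 100 kb, and the median width was 221 bp without minimum-width peaks, which that setting removes by construction. Isolated endothelial sites also called in Kupffer cells were 27.3% at 100 kb, 20.7% without minimum-width peaks, 35.3% with peaks joined and 34.6% with peaks up to 500 bp apart as 1 site. With the Kupffer list reduced, the isolated rate of endothelial-only sites was 2.05 times that of Kupffer-only sites. Kupffer-only sites numbered 0.996 per endothelial-only site in all. Both values come from a single random draw and can move in part by construction. Without minimum-width peaks the isolated rate was 5.01 times that of shared sites. That setting turns a shared site whose Kupffer peak alone has the minimum width into an endothelial-only site. The 53.1%, 20.7% and 5.01 can therefore move in part by construction. Of 41 alternative values 22 lay inside the interval or, for counts and ratios, differed by at most 1.5 times, and the remaining 19 moved more; the cause was not tested for the others. The X chromosome, the 500 bp setting, the restriction to wide sites, joined peaks for the share of endothelial-only sites, and all settings for sharing of isolated endothelial sites and for the ratios between kinds were chosen after seeing the data. No paired analysis was possible because each list pools its libraries, and no replicate could be left out. Settings for sequence and annotation were not run. Depth is unknown, so a site that a list lacks may still be open in that cell type.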
